A study of Sus scrofa with 22 samples.

Results

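ACOD1, SAA3 and the fibrinogen chain genes FGG and FGB were examined as a group of acute-phase and inflammatory genes in the porcine endometrium on Day 12. The group was defined by gene name, and a gene was kept if it was listed in at least 1 of the 3 deposited count tables. Of the 4 genes, 3 were kept, out of 12401 genes listed in any table. ACOD1 and FGG were listed for all cell types and SAA3 for LE and GE, whereas FGB was listed for none and was not analysed here. ACOD1, SAA3 and FGG had been chosen by their read counts in pregnant and control gilts, so those values are given as a description without a test.

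The samples were cells of the epithelium lining the uterine lumen (LE), of the glands (GE) and of the stroma (S), cut out of frozen endometrial sections by laser capture microdissection (LCM) and sequenced as RNA. They came from 8 prepuberal crossbred gilts of German Landrace and Piétrain in which the cycle was induced with gonadotropins. The 4 pregnant gilts (01, 03, 05 and 14) were inseminated with semen, and pregnancy was shown by conceptuses in the uterus. The 4 control gilts (02, 04, 06 and 13) received the supernatant of semen, were cyclic, and were also collected on Day 12. Every gilt gave an LE and a GE library, and the S libraries analysed here came from pregnant gilts 01, 05 and 14 and control gilts 02, 04 and 13, which makes 22 libraries in all. The S areas hold fibroblasts together with immune cells and other cells, so S is a tissue area rather than a single cell type.

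ACOD1 encodes the mitochondrial enzyme that makes itaconate from cis-aconitate, an intermediate of the tricarboxylic acid (TCA) cycle, and is known as a gene that activated macrophages switch on. SAA3 encodes a serum amyloid A protein, an apolipoprotein of the acute phase that is also made outside the liver. FGG encodes the gamma chain of fibrinogen, which is joined with the alpha chain (FGA) and the beta chain (FGB) and is secreted mainly by the liver. In the liver, acute-phase genes are driven by the cytokines IL6 and IL1, through the factors STAT3, C/EBP and NF-kappa-B. On Day 12 the pig conceptus elongates and secretes estrogen and a form of IL1B to which LE is exposed.

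The 250 bases before the annotated starts of ACOD1 and FGG are shown because these genes differed in where NF-kappa-B and C/EBP motifs lay before their starts (RefSeq sequence of Sscrofa11.1, plus strand, 5′ to 3′). Capitals mark motif matches on either strand.
ACOD1: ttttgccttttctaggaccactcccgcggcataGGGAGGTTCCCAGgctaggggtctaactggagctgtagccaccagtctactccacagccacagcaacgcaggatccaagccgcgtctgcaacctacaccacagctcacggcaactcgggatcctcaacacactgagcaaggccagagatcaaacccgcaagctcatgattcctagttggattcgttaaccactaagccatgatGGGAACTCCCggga
FGG: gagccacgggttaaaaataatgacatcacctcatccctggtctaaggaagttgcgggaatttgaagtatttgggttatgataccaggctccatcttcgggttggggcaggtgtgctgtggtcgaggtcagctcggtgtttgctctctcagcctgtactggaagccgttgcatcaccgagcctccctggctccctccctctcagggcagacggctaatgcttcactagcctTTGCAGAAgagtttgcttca

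ACOD1 lies on chromosome 11 (chr11:49077152-49088218, plus strand, Sscrofa11.1) in 5 exon blocks, and its printed window is chr11:49076902-49077151. SAA3 lies on chromosome 2 (chr2:41021349-41025950, plus strand) in 4 exon blocks. FGG lies on chromosome 8 (chr8:74553040-74562151, plus strand) in 9 exon blocks, with the window chr8:74552790-74553039. The NF-kappa-B motif was matched 14 to 5 bases before the start of ACOD1, on both strands, and again from 217 to 207 bases before it, where the reverse-strand match overlapped a CTGGGAA, the core of the IL-6 response element. FGG had no NF-kappa-B match in the window and 1 C/EBP match (TTNNGNAA), 20 to 13 bases before the start.

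Such matches are common. Of 19545 protein-coding genes, 14% held the NF-kappa-B motif in the same window, 31.7% held TTNNGNAA and 12.6% held CTGGGAA on either strand. The whole ACOD1 window was soft-masked in the reference, that is, marked as repeat or low-complexity sequence, and so were all its motif matches, against 9.2% of the bases of the FGG window. Wholly masked windows made up 1.8% of the 19545, and 63.4% of those 352 windows held an NF-kappa-B match. TTCNNNGAA (the STAT motif) and TATAAA, found in 6.11% and 9.77% of windows, were not matched before ACOD1 or FGG. A match is a description of letters and not of a binding site, and the data measure no binding.

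**Figure D1:**
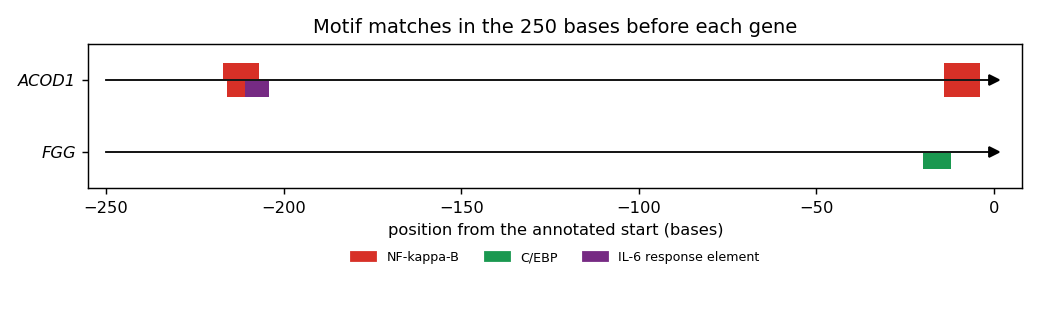
Motif matches in the 250 bases before the annotated starts of ACOD1 and FGG, with the position from the start in bases on the horizontal axis. Bars above and below each line are matches on the plus and the reverse strand, and the arrowhead is the start. ACOD1 has an NF-kappa-B match 14 to 5 bases before the start, and FGG has a C/EBP match 20 to 13 bases before it.

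No 50-base window of the ACOD1 or FGG exons occurs exactly in annotated exons of another gene. Inexact copies and sequence outside annotated exons were not searched, so unique assignment of reads was not shown. For SAA3, 42 of 496 windows (8.47%) also occur in SAA2, which lies 45127 bases away and was not listed in any table, and the counting rule for shared reads is not given in the sources used here. No exon of the 3 genes overlaps an exon of another gene. ACOD1 lies within the span of LOC110255830, a long non-coding RNA gene on the opposite strand that was not listed. SAAL1, which begins 2723 bases after SAA3, was listed for all cell types, whereas SAA4, FGA and FGL1, the relatives of SAA3 and FGG, were not listed for any.

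Library totals on listed genes ranged from 893912 counts (pregnant LE of gilt 01) to 4020796, with a median of 2982917.5, so that 3 counts correspond to 0.694 to 3.57 CPM (counts scaled by the library total). Levels are CPM on 1 scale for all cell types. The cell type labels were checked on marker genes, and epithelial and stromal markers did not separate the tables. The summed level of 7 epithelial markers (keratins, cadherin, claudins and EPCAM) was 2745 to 3365 CPM in control LE and 2614 to 3050 CPM in control S. It was 3139 to 4415 CPM in pregnant LE and 1167 to 4164 CPM in pregnant S. In GE it was 750.8 to 2271 CPM in control and 2321 to 3246 CPM in pregnant gilts. The 7 fibroblast markers reached 11370 to 16960 CPM in control LE, 4284 to 45470 CPM in control GE and 4595 to 8502 CPM in control S. They reached 7519 to 20040 CPM in pregnant LE, 10130 to 29140 CPM in pregnant GE and 8094 to 58630 CPM in pregnant S. In pregnant gilts, 2 of 7 epithelial markers were higher and 1 lower in LE than in S, and none of the 7 fibroblast markers differed (edgeR quasi-likelihood test, FDR below 0.05). LE against GE in pregnant gilts gave the same counts, 2 epithelial markers higher, 1 lower and 0 fibroblast markers called. Between LE and S of control gilts 0 markers of either kind differed, against 0.0918% of all genes. Control LE against GE had 2 epithelial markers higher and 0 lower, against 7.49% of all genes. Within LE, 3 of the 7 epithelial markers were called higher and 2 lower in pregnant gilts, against 10.0% of all genes. Marker differences in pregnant gilts thus mix cell type with pregnancy. All comparisons between LE, GE and S therefore compare the tables as labelled.

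ACOD1 was near absent in control gilts and present in all pregnant gilts, in each of the 3 cell types. In LE, 3 control libraries (gilts 02, 04 and 06) had 0 counts and gilt 13 had 6 counts, or 1.39 CPM. The pregnant LE libraries had 105, 652, 733 and 320 counts (gilts 01, 03, 05 and 14), or 125, 342, 223 and 100.1 CPM. The means were 0.347 ± 0.694 CPM in control and 197.7 ± 110.0 CPM in pregnant LE (SD, n = 4 each), and the groups did not overlap. The ratio of the means, 569, rests on the 6 counts of gilt 13. Without that gilt every control LE library was at 0, and the level was at least 199.9-fold higher against a floor of 3 counts per library.

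In GE, ACOD1 had 0, 0, 2 and 5 counts in control gilts 02, 04, 06 and 13, at most 1.35 CPM. The pregnant GE libraries had 20.02, 44.2, 46.3 and 4.90 CPM (gilts 01, 03, 05 and 14). The means were 0.479 ± 0.640 and 28.8 ± 19.9 CPM (SD, n = 4 each), a ratio of means of 60.3, again with no overlap. The ratio of summed counts was 52.01 (95% exact interval 24.98 to 130.3), and without gilt 13 it was 125 (95% exact interval 34.3 to 1036, counting error only). In S, control gilts 02, 04 and 13 had 0, 2 and 0 counts, whereas pregnant gilts 01, 05 and 14 had 6, 354 and 49 counts, or 4.60, 117 and 14.8 CPM. The ratio of summed counts in S was 233 (95% exact interval 64.1 to 1930, counting error only), and without gilt 04, which holds both control counts, the level was at least 40.5-fold higher. The fitted log2 FC of ACOD1 was 8.70 (SE 0.75) in LE, 5.58 (SE 0.95) in GE and 7.43 (SE 1.61) in S.

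Across all 6 groups the ACOD1 level was highest in pregnant LE, followed by pregnant S (45.5 ± 62.2 CPM, n = 3), pregnant GE and then the 3 control groups, all below 0.5 CPM on average. Pregnant S and pregnant GE overlapped over most of their range, and pregnant LE overlapped pregnant S in 1 library only, that of gilt 05. The control groups did not differ beyond their spread.

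SAA3 followed ACOD1 in LE. Its counts were 0, 0, 0 and 1 in control LE (gilts 02, 04, 06 and 13) and 70, 465, 324 and 151 in pregnant LE (gilts 01, 03, 05 and 14), or 83.3, 244, 98.8 and 47.2 CPM. The means were 0.0579 ± 0.116 and 118.3 ± 86.5 CPM (SD, n = 4 each), and the groups did not overlap. With 1 control count, the ratio of summed counts was 1489 with a wide exact interval of 266.7 to 58890, and without gilt 13 the level was at least 119.6-fold higher. In GE the pregnant libraries had 19.0, 47.0, 12.5 and 3.50 CPM (gilts 01, 03, 05 and 14), and 3 control libraries had 0, 1 and 0 counts. Control gilt 13 had 15 counts in GE (4.06 CPM), above the pregnant gilt 14, so that the groups overlapped. The GE means were 1.14 ± 1.96 and 20.5 ± 18.8 CPM, a ratio of means of 18.0. The ratio of summed counts in GE was 15.5 (95% exact interval 9.37 to 27.6) and was 170.5 without gilt 13 (30.3 to 6764). The fitted log2 FC of SAA3 was 9.98 (SE 0.84) in LE and 3.98 (SE 1.14) in GE.

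Of the 3 kept genes, ACOD1 and SAA3 were higher in every pregnant library than in any control library of LE, where 14.1% of 11415 genes showed that pattern, and ACOD1 did so in GE (2.81% of 11676 genes) and S (7.26% of 11532 genes). The genes were singled out with this contrast known, so the counts say nothing beyond the values. Gilt 13 was the control with the highest ACOD1 and SAA3 level in both LE and GE, but its S library had no ACOD1 count.

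FGG behaved differently from ACOD1 and SAA3, because it was already present in most control libraries and its pregnant and control libraries overlapped in every cell type. In LE its level was 22.3, 372, 26.8 and 0.926 CPM in control gilts 02, 04, 06 and 13, and 239, 889, 115 and 8.14 CPM in pregnant gilts 01, 03, 05 and 14. The means were 105.5 ± 178 and 313 ± 396 CPM (SD, n = 4 each). Only gilt 03 exceeded the highest control, gilt 04, and the pregnant gilt 14 lay below 3 of the 4 controls.

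In GE the level of FGG was 10.0, 35.8, 3.37 and 0 CPM in control gilts 02, 04, 06 and 13, and 64.6, 147, 29.4 and 1.05 CPM in pregnant gilts 01, 03, 05 and 14. Pregnant gilts 01 and 03 exceeded the highest control and the groups overlapped (12.3 ± 16.2 against 60.6 ± 63.4 CPM). In S the level was 9.25, 183 and 11.6 CPM in control gilts 02, 04 and 13, and 17.6, 126 and 3.03 CPM in pregnant gilts 01, 05 and 14. The S means went the other way (67.8 ± 99.4 in control against 49.0 ± 67.4 CPM in pregnant, n = 3 each), each set by 1 high library, gilt 04 or gilt 05. The fitted log2 FC was 1.55 (SE 1.40) in LE, 2.36 (SE 1.36) in GE and −0.41 (SE 1.43) in S. In S it was 2.24 without gilt 04 and −2.77 without gilt 05. In LE it was 0.13 without gilt 03 and 4.25 without gilt 04, and in GE 1.42 and 3.78, the lowest and highest values when each gilt was left out in turn.

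**Figure D2:**
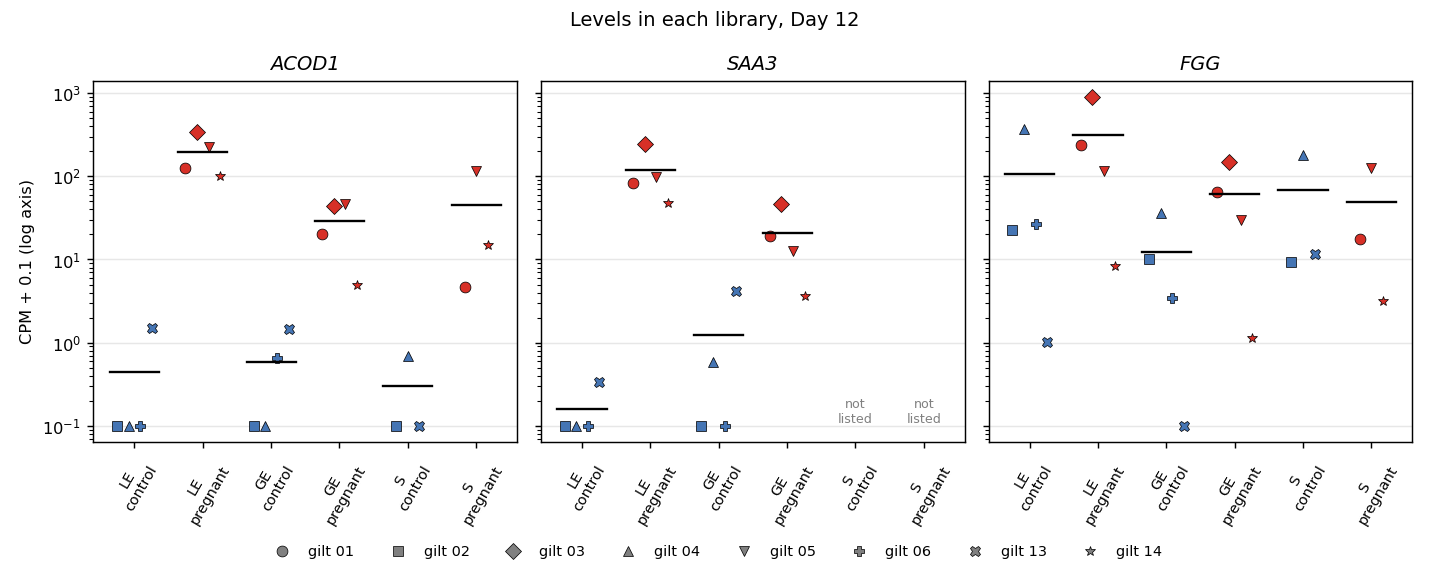
Level of ACOD1, SAA3 and FGG in each library, as CPM plus 0.1 on a log axis, by cell type and state. Each symbol is 1 library with its shape giving the gilt, blue is control, red is pregnant and the horizontal line is the group mean plus 0.1. ACOD1 is below 1.4 CPM in every control library and at 4.60 CPM or more in every pregnant one, whereas the FGG groups overlap in all cell types.

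FGG was ordered over the 6 groups as pregnant LE, control LE, control S, pregnant GE, pregnant S and control GE, and each neighbouring pair overlapped. Per kilobase of exon, which allows levels to be compared between genes, pregnant LE held 171 ± 125 CPM per kb of SAA3, 132 ± 167 of FGG and 65.9 ± 36.6 of ACOD1 (SD, n = 4), and these spreads overlap. In control LE, FGG held 44.7 ± 75.3 CPM per kb while ACOD1 and SAA3 held 0.116 ± 0.231 and 0.0836 ± 0.167. In bulk samples such as these, more cells that express a gene and more RNA per cell cannot be told apart.

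Gilts with more FGG in LE tended to have more of it in GE. Over the 8 gilts, log2 CPM (prior count 2) of FGG in LE and GE had a Pearson r of 0.967 and a Spearman rho of 0.952. This relation was noticed in the data and is given as a description without a test, and the 2 values of a gilt share the animal and its state. The r was 0.933 without the pair of gilts farthest from the median, 03 and 13, was 0.953 to 0.978 when any single gilt was left out, and was 0.963 after the means of pregnant and control gilts were subtracted. Among 10851 genes listed for both cell types, 0.147% had an r at least as high, and the median r was 0.323. Over 6 gilts, r was 0.725 and rho 0.771 for LE and S, and r was 0.654 and rho 0.657 for GE and S. Without the 2 gilts farthest from the median, these r values were 0.700 and 0.331.

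**Figure D3:**
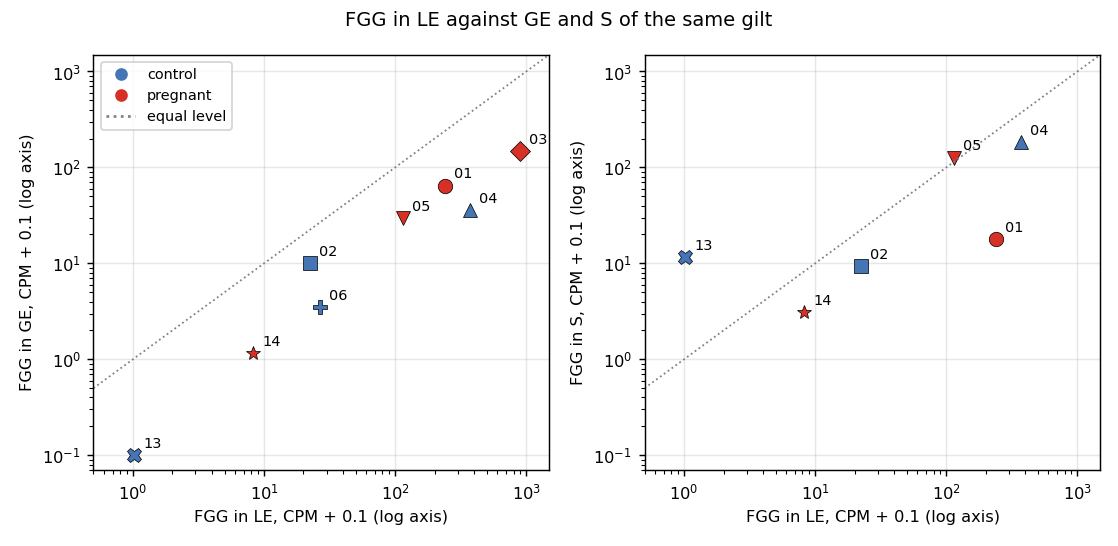
FGG in LE against FGG in GE (left, 8 gilts) and in S (right, 6 gilts) of the same gilt, as CPM plus 0.1 on log axes. Blue is control, red is pregnant, numbers are gilts and the dotted line marks equal levels. In GE all 8 gilts lie below the line in nearly the order they have in LE, whereas in S gilt 13 lies far above it.

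Within the pregnant gilts, all 3 genes were higher in LE than in GE of the same animal. This comparison sets the LE and GE libraries of the same animals side by side. The genes were singled out by pregnant against control counts, which include these pregnant LE and GE values. ACOD1 and SAA3 were near absent in control gilts, so passing the CPM filter also rested on their pregnant libraries. The FDRs of the 3 genes between cell types are therefore not independent of that choice. The GE level as a percentage of the LE level was 4.90 to 20.7 for ACOD1 (median 14.5), 7.41 to 22.8 for SAA3 (median 15.96) and 12.9 to 27.0 for FGG (median 21.0), below 100 in 4 of 4 gilts for each gene. With gilt as a block, the difference LE minus GE was 2.94 on the log2 scale for ACOD1 (SE 0.37, FDR 0.0021), 2.71 for SAA3 (SE 0.30, FDR 0.00152) and 2.20 for FGG (SE 0.35, FDR 0.00285) in the edgeR quasi-likelihood test adjusted over 10851 genes. At the same FDR of 0.05, 24.4% of those genes differed and 11.6% were higher in LE. Without the block the FGG difference was 2.31 with an FDR of 0.3.

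FGG was also higher in LE than in GE of the control gilts (2.59, SE 0.42, FDR 0.0184, edgeR quasi-likelihood test), where 7.49% of genes differed and 3.45% were higher in LE. Its control GE level was 0 to 44.9% of LE, below 100% in 4 of 4 gilts. This call was lost without gilt 04 (FDR 0.132), without gilt 13 (FDR 0.0569), without the block (FDR 0.271) and in a fit of control gilts only (FDR 0.103). ACOD1 and SAA3 were too low in control gilts for a comparison of cell types.

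ACOD1 in LE and S of pregnant gilts differed by 2.43 (SE 0.66, FDR 0.0521, edgeR quasi-likelihood test), and FGG by 1.53 (SE 0.92, FDR 0.312). At an FDR of 0.05, 12.0% of 10890 genes were called. S held 3.68, 52.4 and 14.8% of the LE level of ACOD1 in gilts 01, 05 and 14, and 7.37, 109.7 and 37.2% for FGG. The FGG difference was 0.30 without gilt 01 and 2.93 without gilt 05. The ACOD1 difference passed the threshold without gilt 05 (3.48, FDR 0.0279). In control gilts FGG differed by 0.20 (SE 0.90, FDR 0.981) between LE and S, where 0.0918% of genes were called, and S of gilt 13 had 1255% of a LE level of only 0.926 CPM. GE and S of pregnant gilts differed by −0.56 for ACOD1 (SE 0.83) and −0.54 for FGG (SE 1.13). In that comparison 0 of 11124 genes were called by the edgeR quasi-likelihood test, its likelihood ratio test or DESeq2, with 223 at an unadjusted p below 0.05. For FGG in control gilts GE minus S was −2.03 (SE 1.07, FDR 0.4), with 0.171% of genes called.

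**Figure D4:**
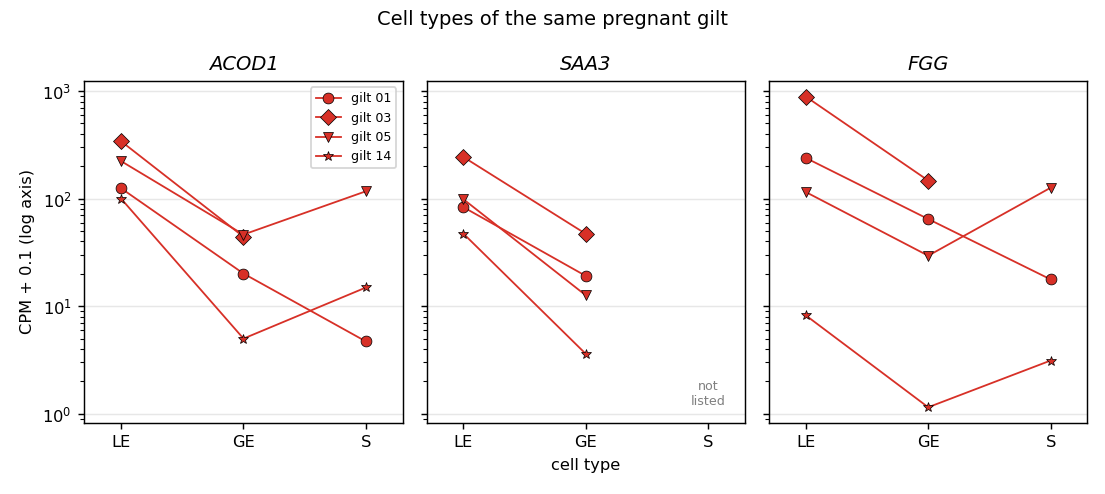
Level of ACOD1, SAA3 and FGG in LE, GE and S of the same pregnant gilt, as CPM plus 0.1 on a log axis, with lines joining the libraries of 1 gilt. Every line falls from LE to GE, and from GE to S the lines of gilts 05 and 14 rise while that of gilt 01 falls. SAA3 was not listed for S, and S of gilt 03 was not analysed here.

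Pregnant gilts differed among themselves. Gilt 03 had the highest LE level of all 3 genes and gilt 14 the lowest, a ratio within ACOD1 of 342 to 100.1 CPM, within SAA3 of 244 to 47.2 CPM and within FGG of 889 to 8.14 CPM. Gilts 05 and 01 lay between, with gilt 05 above gilt 01 for ACOD1 and SAA3 and below it for FGG. The genes most like ACOD1 over all 22 libraries were LOC100153783 (Pearson r of log2 CPM 0.974), LOC100513074 (0.961), the annexin gene ANXA8 (0.960), the laminin chain gene LAMB3 (0.959) and STEAP2 (0.956), among 10642 genes. The gene most like SAA3 over the 16 LE and GE libraries was ACOD1 (0.980), followed by the translation factor gene EIF2B2 (0.972), the calgranulin gene S100A8 (0.971), TMEM45B (0.969) and ARID5A (0.963). FGG was nearest to COPS7A (0.803), RER1 (0.761), NNT (0.759), PSMB5 (0.749) and F5 (0.742), the gene of coagulation factor V. FGG was the 1693rd gene by likeness to ACOD1 (0.483). The libraries share gilts and the contrast of pregnant and control, so these correlations are descriptions. With a prior count of 0.5, 2 of the first 5 genes were shared for ACOD1, 2 for SAA3 and 4 for FGG.

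Few other acute-phase genes were listed in these tables. Of 31 further genes, of acute-phase proteins, other liver products and fibrinogen relatives, 7 were listed for LE. Of these, 1 was called higher in pregnant LE at the study's cut-off (FDR below 0.01, edgeR quasi-likelihood test). At that cut-off 10.0% of all LE genes were called, 6.33% higher and 3.71% lower. The called gene of the list was FGL2, included as a relative of FGG. FGL2 encodes a fibrinogen-like protein with prothrombinase and immunoregulatory roles. FGL2 was 17.4 ± 2.70 CPM in control and 1047 ± 806 CPM in pregnant LE (log2 FC 5.89, SE 0.88, FDR 0.00132), with 50.4 CPM in gilt 14 as the lowest pregnant value against 21.3 CPM as the highest control value. Its order of pregnant gilts in LE, 03, 01, 05 and 14, was that of FGG. In GE (log2 FC 2.39, SE 1.03, FDR 0.609) and S (4.01, SE 0.88, FDR 0.14) FGL2 was not called by the edgeR quasi-likelihood test, although the S groups did not overlap (10.8 to 15.4 against 30.3 to 419 CPM). In S it was called by the likelihood ratio test of edgeR (log2 FC 4.00, FDR 0.000447) and by DESeq2 (4.02, FDR 6.02e-05). Without gilt 14, 1 gene of the list was called higher and 1 lower in LE. The median log2 FC of the 7 genes in LE was 0.98, against 0.01 over all genes. Because the list mixes these kinds of gene, its median is no measure of an acute-phase response.

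No other gene of this list was called higher in any cell type. CP, the copper carrier ceruloplasmin, had 114 ± 27.0 CPM in control S and fell to 32.2 ± 4.74 CPM in pregnant S (log2 FC −1.79, SE 0.27, FDR 0.0739, edgeR quasi-likelihood test). In LE, CP was 144 ± 118 and 16.5 ± 15.5 CPM in control and pregnant gilts (log2 FC −3.08, SE 0.76, FDR 0.0169) and was not called by that test, but was called lower by the likelihood ratio test (FDR 0.000949) and by DESeq2 (FDR 0.00585). The cut-off in GE and S was the unadjusted p of 0.0021 of the study, at which 1.47% of genes were called in S and 0.694% in GE, so the FDR is printed beside each call. C3, the central complement component, was 24.4 ± 4.47 and 49.7 ± 24.3 CPM in control and pregnant LE (FDR 0.0619) and was not called. HP, CRP, LBP and ALB, acute-phase or liver products, were not listed for any cell type.

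Of 20 listed genes of the IL1, Toll-like receptor and NF-kappa-B list, 5 were called higher and 1 lower in pregnant LE (30%, against 10.0% of all LE genes). The Toll-like receptor genes TLR2 (9.04 and 15.6 CPM in control and pregnant LE, log2 FC 0.73, FDR 0.315) and TLR4 (49.1 and 23.2 CPM, −1.04, FDR 0.0509) were not called by the edgeR quasi-likelihood test. IL1R1, the signalling receptor of IL1, rose from 307 ± 91.8 to 2295 ± 609 CPM (log2 FC 2.89, FDR 0.000157, edgeR quasi-likelihood test), and its accessory chain IL1RAP from 260 ± 32.3 to 1535 ± 831 CPM (2.56, FDR 0.00132). The NF-kappa-B subunits RELB (log2 FC 2.68, FDR 0.000128) and NFKB2 (2.21, FDR 8.23e-05) rose, as did NFKBIA (3.31, FDR 0.000496), the inhibitor that NF-kappa-B itself induces. IL1A, the cytokine, fell from 92.1 ± 18.0 to 39.8 ± 12.97 CPM (−1.19, FDR 0.00913). The 5 genes that rose were called in all 8 fits that left out 1 gilt, whereas IL1A was called in 1 of 8, that without gilt 14. The cytokine genes IL1B, IL1B2 and TNF were not listed for any cell type. RELA, which encodes the subunit p65, was 36.7 and 39.9 CPM (log2 FC 0.10, FDR 0.794). The median log2 FC of the list was 0.66 in LE.

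In S, 3 of 19 genes of the same list were called (15.8%, against 1.47% of all S genes). NFKBIA rose (log2 FC 2.54, FDR 0.124, edgeR quasi-likelihood test), and IL1A (−2.60, FDR 0.127) and the receptor TLR4 (−2.13, FDR 0.0807) fell. TLR4 was called in all 6 fits that left out 1 gilt, NFKBIA was lost without gilt 02, 04 or 13, and IL1A was called in the fit without gilt 05 only. IRF1, a factor known to act on ACOD1 in macrophages, was 30.6 ± 10.1 and 44.9 ± 27.7 CPM in control and pregnant LE (log2 FC 0.60, FDR 0.372) and was not called in any cell type.

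In the IL6, STAT3 and C/EBP list, 2 of 15 listed genes were called higher and 1 lower in LE (20%, against 10.0% of all LE genes). IL10RB, a receptor chain shared by the IL10 family, rose from 13.9 ± 2.85 to 117 ± 27.8 CPM (log2 FC 3.06, FDR 5.13e-05, edgeR quasi-likelihood test), and CEBPB, which encodes C/EBP-beta, from 35.3 ± 9.36 to 142 ± 37.4 CPM (2.004, FDR 0.000612). IL11RA, the receptor of IL11, fell from 77.8 ± 11.4 to 23.6 ± 10.2 CPM (−1.68, FDR 0.0021), a call that was lost without gilt 05. STAT3 was 173 and 174 CPM (log2 FC 0.01, FDR 0.982) and IL6ST, the shared signal chain of the IL6 family, 302 and 275 CPM (−0.14, FDR 0.675). IL6 was not listed. In S, 0 of 16 genes were called by the edgeR quasi-likelihood test, against 1.47% of all S genes. Of the 16, 5 had an unadjusted p below 0.05, against 1438 of all 11532 S genes. The likelihood ratio test and DESeq2 each called 0.

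All 30 genes of itaconate metabolism, the TCA cycle and the targets of itaconate were listed for LE, and 0 were called higher and 1 lower by the edgeR quasi-likelihood test (3.33%, against 10.0% of all LE genes). At an unadjusted p below 0.05 in either direction there were 11, against 4059 of all 11415 LE genes. The likelihood ratio test and DESeq2 each called 6 of the 30, 4 higher and 2 lower, against 2072 and 2182 of all 11415 LE genes. The 4 called higher by both were ATF3, SUCLA2, DLST and MDH2. The gene called lower by the edgeR quasi-likelihood test was CLYBL, an enzyme of itaconate breakdown. It fell from 17.01 ± 3.55 to 5.97 ± 1.08 CPM (log2 FC −1.50, SE 0.29, FDR 0.00491, edgeR quasi-likelihood test). CLYBL was called in 3 of 8 fits that left out 1 gilt, those without gilts 01, 04 or 14. Without gilt 14, 3 genes of the list were called higher and 2 lower. ACO1, the cytosolic aconitase, was 543 and 263 CPM in control and pregnant LE (log2 FC −1.05, FDR 0.0305) and was not called by the edgeR quasi-likelihood test, but was called lower by the likelihood ratio test (FDR 0.00793) and by DESeq2 (FDR 0.00573). The succinate dehydrogenase genes SDHA and SDHB, whose enzyme itaconate inhibits, had log2 FC of 0.25 and −0.08 and were not called. The median of the list was 0.06.

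Among coagulation and fibrinolysis genes, 1 of 15 listed for LE was called higher and 1 lower (13.3%, against 10.0% of all LE genes). PLAUR, the urokinase receptor, rose from 3.69 ± 1.51 to 13.4 ± 3.82 CPM (log2 FC 1.85, FDR 0.00767, edgeR quasi-likelihood test), and the thrombin receptor F2R fell from 68.6 ± 5.94 to 41.0 ± 5.29 CPM (−0.76, FDR 0.00907). Each was called in 1 of 8 fits that left out 1 gilt, PLAUR in that without gilt 14 and F2R in that without gilt 01, and PLAUR was not called with library size alone in place of TMM. F3, tissue factor, was 48.4 and 53.1 CPM (log2 FC 0.10, FDR 0.835). Of 8 listed receptors for SAA or fibrinogen, 1 was called (12.5%): ITGAV, an integrin chain, rose in LE from 151 ± 45.1 to 412 ± 42.3 CPM (1.44, FDR 0.00154). SCARB1, a receptor for SAA, was 135 and 144 CPM (0.09, FDR 0.772).

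In GE none of the 93 listed genes of the 6 lists was called by the edgeR quasi-likelihood test, against 0.694% of all GE genes. At an unadjusted p below 0.05 there were 11, against 945 of all 11676 GE genes. The likelihood ratio test and DESeq2 each called 2, IL10RB and CEBPB, against 185 and 241 of all GE genes. In S, none of the coagulation genes (14), TCA genes (30) or receptors (7) was called by the quasi-likelihood test, against 1.47% of all S genes. At an unadjusted p below 0.05 there were 4, 4 and 1, against 1438 of all 11532 S genes. The likelihood ratio test called 3, 0 and 0 and DESeq2 3, 1 and 0, against 463 and 512 of all S genes.

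**Figure D5:**
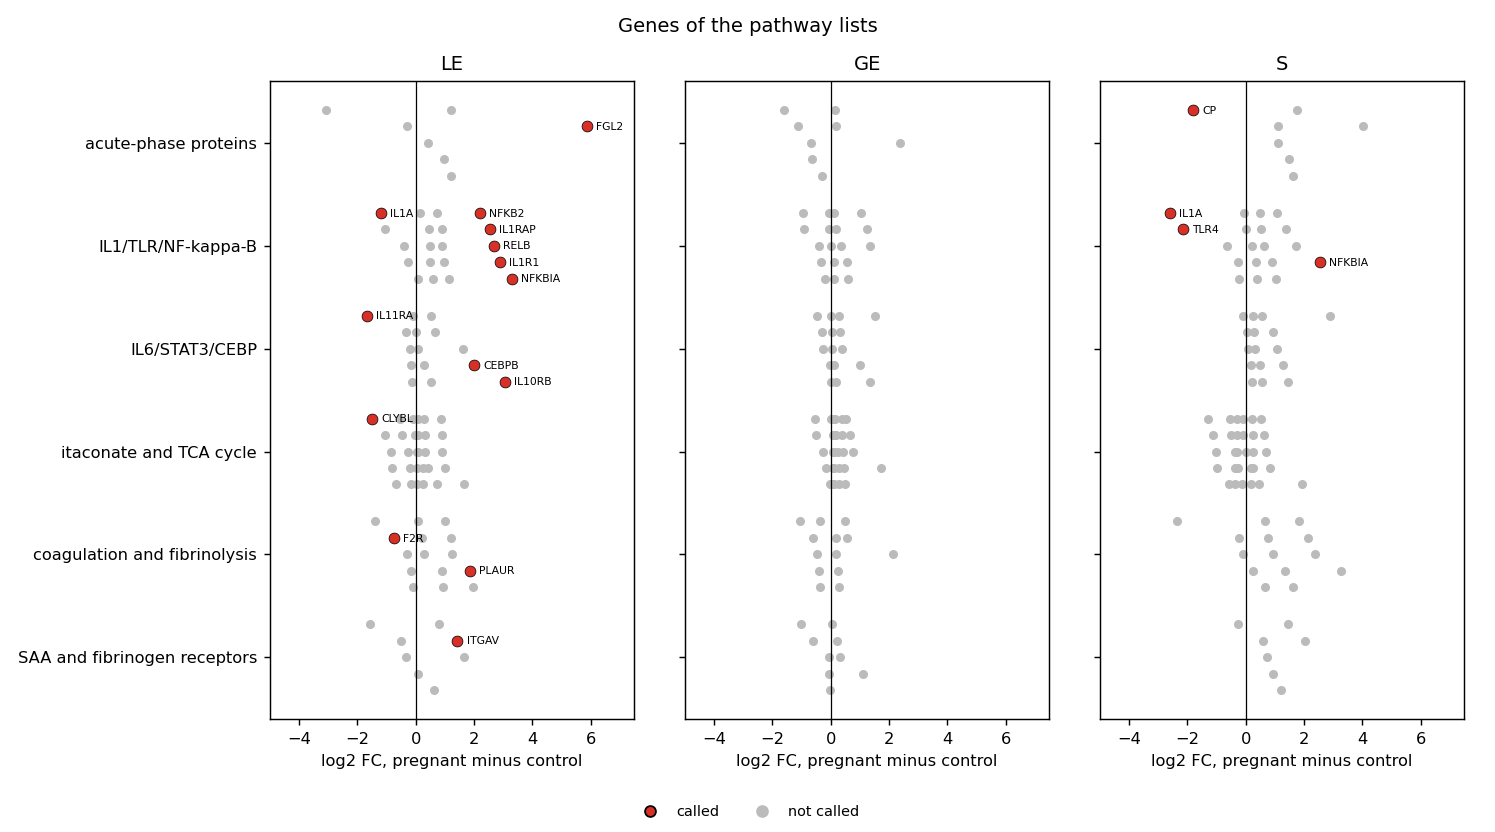
Log2 FC of pregnant minus control for each listed gene of 6 pathway lists in LE, GE and S, with 1 point per gene and its vertical place within a list only separating points. Red points with names were called (FDR below 0.01 in LE, unadjusted p below 0.0021 in GE and S) and grey points were not. Called genes number 14 of 95 in LE, 0 of 93 in GE and 4 of 93 in S, against 10.0%, 0.694% and 1.47% of all genes. The lists were chosen with earlier results known, so these shares are no test of enrichment.

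Markers of cells that could carry these transcripts were set beside them. For macrophages, 7 of 12 markers were listed for LE, and their summed level was 120 to 237 CPM in control and 74.4 to 155 CPM in pregnant LE, with none called. The neutrophil marker MMP8, a collagenase, was 51.9 to 238 CPM in control and 894 to 3253 CPM in pregnant LE and was called higher (log2 FC 3.99, SE 0.62, FDR 0.00157, edgeR quasi-likelihood test), whereas the neutrophil markers CSF3R, CXCR2 and MPO were not listed. Within the pregnant gilts MMP8 was also higher in LE than in GE, by 2.92 on the log2 scale (edgeR quasi-likelihood test with gilt as a block, FDR below 0.05), as were ACOD1, SAA3 and FGG. MMP8 was 0.270 to 58.2 and 64.9 to 490 CPM in control and pregnant GE, and 67.0 to 308 and 89.0 to 1838 CPM in S, and was not called in either. No marker of 8 for lymphocytes and none of 10 for the conceptus was listed for any cell type. Of 8 hepatocyte markers only APOA1 was listed, at 48.8 to 81.2 CPM in control and 35.4 to 378 CPM in pregnant LE. The part of these cells in the levels of ACOD1, SAA3 and FGG was not tested.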

How the data were processed

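RNA-seq counts were examined for LE, GE and S collected by LCM from 8 gilts. Per the sources, the authors prepared Ovation SoLo libraries, removed 5 bases from read starts, mapped reads with Hisat2 to NCBI Sscrofa11.1, removed PCR duplicates with 8 random bases, filtered genes by CPM and deposited 1 table of whole-number read counts by NCBI gene per cell type, not normalized. The filter level, the counting program and the strand setting are not given in the sources used here. A gene absent from a table was treated as not analysed there. The submitters' processing notes name edgeR.

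Gene IDs were matched to symbols in the Sscrofa11.1 annotation. Each cell type was fitted by the quasi-likelihood F test of edgeR 4.0.16 under R 4.3.3, with TMM scaling factors, over all listed genes. The cut-offs were those of the study, FDR below 0.01 (LE) and p below 0.0021 (GE and S). In the study 0.0021 was the p that matched this FDR in LE. Here LE was held to a stricter p than GE and S. ATF3 in LE had p 0.00122 and FDR 0.0113 (quasi-likelihood test) and was not called. Cell types were compared in joint fits with gilt as a fixed block (FDR below 0.05). FDR is the Benjamini-Hochberg adjusted p. SE is the absolute log2 FC divided by the square root of the F statistic of the same fit, an approximation. Libraries with 1 number come from 1 gilt by the labels, and their deviations from group means correlated with medians of 0.26 (LE and GE, above 0.1 in 6 of 8 gilts), 0.319 (LE and S, 6 of 6) and 0.499 (GE and S, 5 of 6). CPM used library totals and TMM factors over the 10643 genes of all tables.

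The genes and the lists were chosen with earlier results of these data known. Genes named are the 4 chosen, called genes of each list (at most 4 per list and cell type by p), the 5 most correlated genes, family relatives, and the partners ACO1 and IRF1. IL1RAP, IL1A in LE and the uncalled pathway genes given for comparison were named beyond that rule. SAA1, SERPINA3, CTF1, LIFR, IL1RN and FPR2 had no symbol in the annotation. The edgeR steps were tested on simulated counts. Alternatives were other normalizations, filterByExpr, the likelihood ratio test, DESeq2 1.42.0, other thresholds, fits without the block or of 1 state, and leaving out each gilt. The analysis of FGG between cell types was added after its values were seen. Some genes and a sequence are not reported here. Intervals cover counting error only.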

Additional observations from a re-analysis of the deposited data

Results flagged for a closer look

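Of 12 groups of 4 libraries checked for a library far from the other 3, 4 had one. The chance rate of about 1 in 20 groups does not apply to ACOD1 and SAA3 in LE, where 3 control libraries are at 0 and any count stands apart, nor to genes that were chosen by these values. Of these, 3 are of control gilt 13, which had 1.39 CPM of ACOD1 in LE, 0.231 CPM of SAA3 in LE and 4.06 CPM of SAA3 in GE, each the highest of the control libraries and the first 2 the only ones above 0. The control LE library of gilt 04 had 372 CPM of FGG against 26.8 CPM as the next highest control. Gilt 04 was also the highest control for FGG in GE and S. The 3 values of gilt 13 rest on 6, 1 and 15 counts.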

How the results depend on the processing

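Few libraries and low counts limit the precision, and several counts of called genes moved by over 1.5 times between settings. Genes called in pregnant against control numbered 1146 in LE, 81 in GE and 170 in S. They were 2557, 2 and 29 at an FDR of 0.05, 2072, 185 and 463 with the likelihood ratio test, and 2182, 241 and 512 with DESeq2. Leaving out 1 gilt gave 588 to 1643, 42 to 100 and 65 to 221. With library size alone, the median log2 FC of all genes in LE was −0.14 instead of 0.01, and 50.5% of called genes were higher in pregnant LE instead of 63%.

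Leaving out 1 gilt gave a log2 FC of 8.30 to 12.03 (LE), 5.24 to 6.67 (GE) and 5.24 to 9.90 (S) for ACOD1, of 9.37 to 11.29 (LE) and 3.19 to 6.90 (GE) for SAA3, and of 0.13 to 4.25 (LE), 1.42 to 3.78 (GE) and −2.77 to 2.24 (S) for FGG.

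Between cell types, genes called were 2653 (LE and GE, pregnant), 813 (LE and GE, control), 1307 (LE and S, pregnant), 10 (LE and S, control), 0 (GE and S, pregnant) and 19 (GE and S, control). At an FDR of 0.01 they were 1168, 2, 110, 0, 0 and 0. The likelihood ratio test gave 1547 in LE and GE of control gilts, 2184 and 226 for LE against S (pregnant, control) and 800 for GE against S of control gilts, and DESeq2 gave 1644, 163 and 735 for the control comparisons in that order. Leaving out 1 gilt gave 1339 to 3110, 2 to 839, 196 to 1379, 0 to 12, 0 to 0 and 0 to 11. In fits of 1 state, 0 genes were called for LE and GE in control gilts, 124 and 227 for LE and S in pregnant and control gilts, and 0 for GE and S in control gilts.

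The replicate block, here the gilt, mattered. Without it, FGG in LE minus GE was 2.31 (FDR 0.3) in pregnant and 3.19 (FDR 0.271) in control gilts, neither past the threshold, FGG in GE minus S of pregnant gilts turned to 0.25, and 0 genes were called for LE and S and for GE and S of control gilts. FGG in LE minus GE of control gilts was 2.59 with an FDR of 0.0184, which misses 0.01, and 2.60 in a fit of control gilts only (FDR 0.103). Leaving out 1 gilt gave 2.06 to 3.26, with the call lost without gilts 04 and 13. ACOD1 in LE minus S passed the threshold with the likelihood ratio test (2.68, FDR 0.00243), and leaving out 1 gilt gave 1.72 to 3.48. FGG in LE minus S of control gilts turned to −0.0696 with the likelihood ratio test and −0.10 with DESeq2, and leaving out 1 gilt gave −0.59 to 1.12, including −0.40. In GE minus S of pregnant gilts, leaving out 1 gilt gave −1.47 to 0.10 for ACOD1, including 0.01, and −1.97 to 0.74 for FGG. The cause was not tested. The LE minus GE calls of ACOD1 and SAA3 in pregnant gilts remained under every alternative run. All these fits use the pregnant counts by which the genes were chosen, so this is a description and not independent support.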
